A study of Mus musculus with 12 samples.

Results

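The microRNA precursors mir-143 and mir-145a (mmu-mir-143 and mmu-mir-145a in the mouse) were followed through small RNA sequencing of 12 mouse retina libraries. They were taken by name from the precursor tables, and are 2 of 1532 precursors seen in the 12 libraries, 997 of which carry a miRBase name. Each precursor gave reads from both sides of its hairpin, so 4 mature arms are described: miR-143-3p, miR-143-5p, miR-145a-5p and miR-145a-3p. The 6 model libraries came from db/db mice, an obese and diabetic strain without functional leptin receptor, and the 6 Keluoxin libraries from db/db mice given Keluoxin, a Chinese herbal preparation. All 12 libraries share the db/db genotype, so no lean group is compared, and the strain labels name a KsJ background with a number before BL that rises by 1 from library to library and was not used. The labels used here give no age, dose or duration. Nor do they state whether each sample is a different animal, and the p-values then measure only sample-to-sample spread, which may be technical. The tissue is taken from the source label (retina), although an exosome pellet is mentioned in the extraction protocol.

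miR-143 and miR-145 are made from a shared primary transcript, the long noncoding RNA CARMN, and are best known from vascular smooth muscle cells and pericytes, together called mural cells. In smooth muscle their transcription is driven by serum response factor with myocardin. There miR-145 represses the transcription factors KLF4 and KLF5, which favours the contractile over the proliferative state. Retinal capillaries are densely covered by pericytes, and loss of pericytes is a classical feature of diabetic retinopathy. Each hairpin is cut by Drosha and Dicer into a 5p and a 3p strand, and the strand retained in Argonaute pairs with targets through its seed, bases 2 to 8 from the 5′ end. The tables hold no messenger RNA, so the mural origin in the name could not be checked against protein-coding markers. The members can be set only beside microRNAs known from other cell types.

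The results below set the members beside other arms of 2 kinds, whose mature sequences are shown so that the seeds can be compared. The first 3 are arms over which the members' ratio differed between the groups, from endothelium (miR-126a-3p), photoreceptors (miR-182-5p) and the vascular wall (miR-27b-3p). The last 3 are among the arms whose level was most like that of miR-143-3p across libraries. The sequences are those of RefSeq (GRCm38.p6), where 11 of the 12 arms set beside the members had an entry, and capitals mark the seed.
miR-126a-3p: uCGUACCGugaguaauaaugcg
miR-182-5p: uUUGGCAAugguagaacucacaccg
miR-27b-3p: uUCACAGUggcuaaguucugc
miR-195a-5p: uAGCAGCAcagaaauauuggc
miR-322-5p: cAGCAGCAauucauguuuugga
miR-152-3p: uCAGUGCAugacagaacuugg
miR-195a-5p and miR-322-5p carry the same seed, while the other 4 seeds differ from it and from each other.

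Both hairpins lie on the minus strand of chromosome 18 of the mouse assembly GRCm38. Matching the precursors to GENCODE M21 transcripts placed mir-143 at 61649196 to 61649258, a hairpin of 63 bases annotated as Mir143. It placed mir-145a at 61647825 to 61647894, a hairpin of 70 bases annotated as Mir145a, with 1301 bases between the hairpins. No other GENCODE gene overlaps either hairpin, and the GENCODE model of Carmn ends 366 bases from Mir143. The RefSeq model of Carmn, which has the synonym Mir143hg, spans both hairpins.

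The 12 libraries held 62878432 reads on microRNA precursors, from 1933375 in Keluoxin replicate 5 to 7892147 in model replicate 3. Of 862 arms that passed the filter on low counts, all 4 member arms among them, edgeR's quasi-likelihood test called 155 different between the groups, 18% of those tested. With reads scaled by the trimmed mean of M-values (TMM), 86 of these (9.98% of those tested) were higher and 69 (8%) lower in Keluoxin. Scaling by total reads gave 96 higher and 29 lower, and scaling by the upper quartile gave 77 higher and 153 lower. On the first principal component (51.6% of the variance) model replicate 1 was on the side of the Keluoxin libraries.

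The locus was represented almost wholly by 1 strand. Of 244707 reads on the 4 arms, 96.6% were miR-143-3p, 2.24% miR-145a-5p, 0.872% miR-145a-3p and 0.318% miR-143-5p. The 2 hairpins differ in which strand dominates: the 3p strand of mir-143 and the 5p strand of mir-145a. In model libraries miR-143-3p had 304.2 ± 36.4 reads per read of miR-143-5p (SD, n = 6), against 319.7 ± 45.3 in Keluoxin. miR-145a-5p had 2.849 ± 0.955 reads per read of miR-145a-3p in model libraries and 2.988 ± 0.778 in Keluoxin. The strand choice of mir-143 was thus among the more one-sided in these retinas, 15th of the 154 precursors with both arms measured, while that of mir-145a ranked 102nd. Neither log2 ratio of 5p over 3p reads differed between the groups in limma's moderated test, in which 14.3% of 154 precursors were called. The difference was -0.07 for mir-143 (SE 0.15, adjusted p = 0.783) and 0.08 for mir-145a (SE 0.23, adjusted p = 0.849).

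miR-143-3p, the abundant arm of the locus, ranked between 24th and 40th of the 529 tested arms with a miRBase name. Its level, as a TMM-scaled share of the library (CPM, counting whole reads without regard to length), ran from 2450.2 over a median of 3086 to 4062 in model libraries. In Keluoxin libraries it ran from 3207 over a median of 3568 to 6896. All 6 Keluoxin libraries lay above the model mean, but only replicates 4 and 5, at 6896 and 5045 CPM, lay above every model library. The means were 3134 ± 549 in model and 4299 ± 1427 in Keluoxin libraries (SD, n = 6), a ratio of 1.37. The fitted log2 fold change was 0.46 with a standard error of 0.20 and a 95% interval of 0.03 to 0.89. In edgeR the unadjusted p was 0.0394 and the adjusted p 0.123, so the arm did not pass the test. Without Keluoxin replicate 4 the Keluoxin mean was 3780.2 ± 723 (SD, n = 5), and the log2 fold change was 0.27 (edgeR adjusted p = 0.238). In bulk RNA, a change in the number of cells of a type and a change in RNA per cell cannot be told apart.

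miR-145a-5p, the arm that carries the known smooth muscle activity of miR-145, was present at a far lower level. It ran from 61.02 over a median of 76.34 to 88.54 CPM in model libraries, and from 69.24 over a median of 90.75 to 140.0 CPM in Keluoxin libraries. Keluoxin replicates 2, 4 and 5 lay above every model library, while replicates 1 and 3, at 69.24 and 77.16 CPM, lay within the model range. The means of 76.16 ± 9.28 and 98.67 ± 27.8 CPM (SD, n = 6) gave a log2 fold change of 0.37 (SE 0.18, 95% interval -0.03 to 0.77). It did not pass edgeR's test (adjusted p = 0.172), and without Keluoxin replicate 4 the log2 fold change was 0.24 (adjusted p = 0.318).

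The 2 minor strands, which are usually degraded after Dicer cleavage, had wider relative spreads. miR-145a-3p ran from 16.15 over a median of 29.6 to 38.3 CPM in model and from 24.73 over a median of 29.55 to 69.6 CPM in Keluoxin libraries. Keluoxin replicate 4 stood alone at the top, and the other 5 Keluoxin libraries overlapped the model range. The log2 fold change of miR-145a-3p was 0.31 (SE 0.29, edgeR adjusted p = 0.447) and -0.01 without that library. Under upper-quartile scaling it was -0.04. miR-143-5p ran from 7.402 over a median of 10.45 to 13.59 CPM in model and from 9.158 over a median of 11.82 to 24.52 CPM in Keluoxin libraries. Replicates 4 and 5 again lay above every model library, and the log2 fold change was 0.40 (SE 0.27, edgeR adjusted p = 0.291) and 0.15 without Keluoxin replicate 4 (edgeR adjusted p = 0.65). It rested on 29 to 185 reads per library, which alone gives a counting error of 7.35% to 18.6%, whereas miR-143-3p had 9512 to 52017 reads and a counting error of 0.438% to 1.03%.

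**Figure D1:**
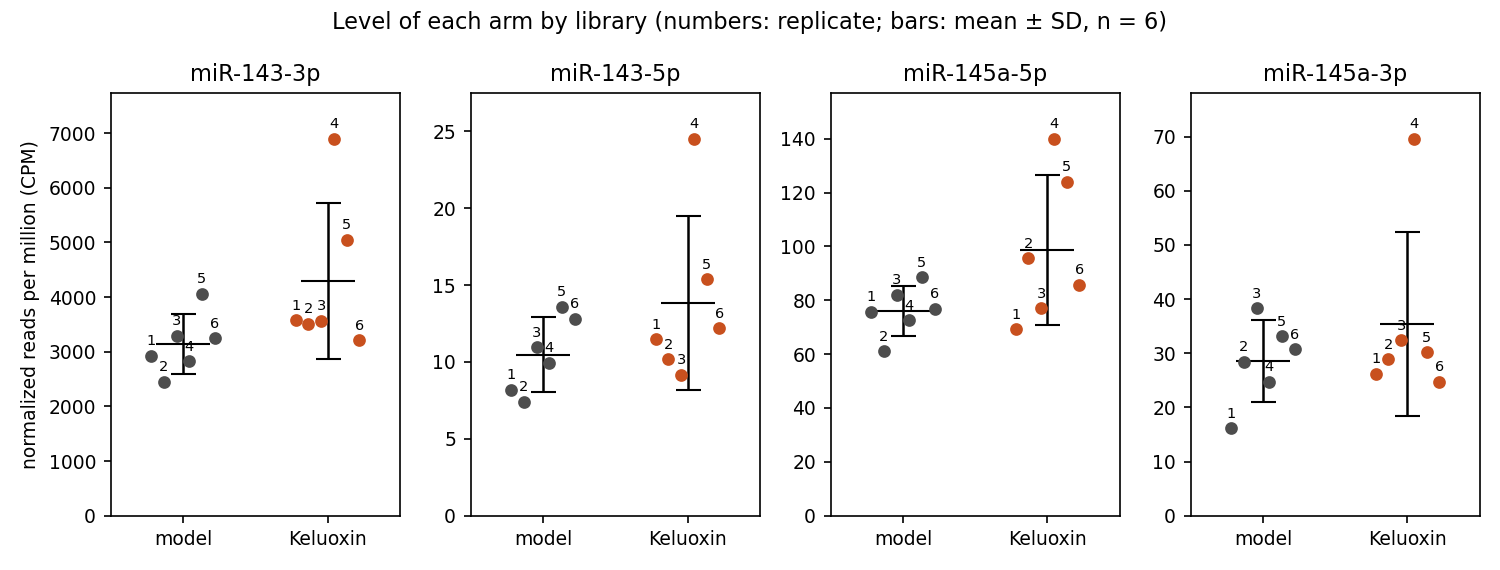
Level of each arm in normalized CPM (vertical axes from 0), 1 point per library with its replicate number, for 6 model and 6 Keluoxin libraries, with the mean ± SD. In every panel Keluoxin replicate 4 is the highest point (6896, 24.52, 140.0 and 69.6 CPM), and the other Keluoxin libraries overlap the model range to different degrees.

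None of the 4 member arms was therefore called, against 18% of all tested arms, and their log2 fold changes had a median of 0.39. The median over all 862 arms was 0.04, and over the 529 arms with a miRBase name, of which 13.6% were called (4.54% higher and 9.07% lower in Keluoxin), it was -0.11. The scaling moved every arm together: the median of all arms was -0.26 under upper-quartile scaling and 0.22 under scaling by total reads. Relative to the median of all arms the log2 fold change of miR-143-3p was 0.42 with TMM, 0.39 with the upper quartile and 0.45 with total reads. The same differences for miR-145a-5p were 0.33, 0.32 and 0.35. Without Keluoxin replicate 4 they were 0.24 for miR-143-3p and 0.21 for miR-145a-5p. With annotated precursors only these differences were 0.58 and 0.49, but relative to the median of the annotated arms alone (0.03 in that fit).

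**Figure D2:**
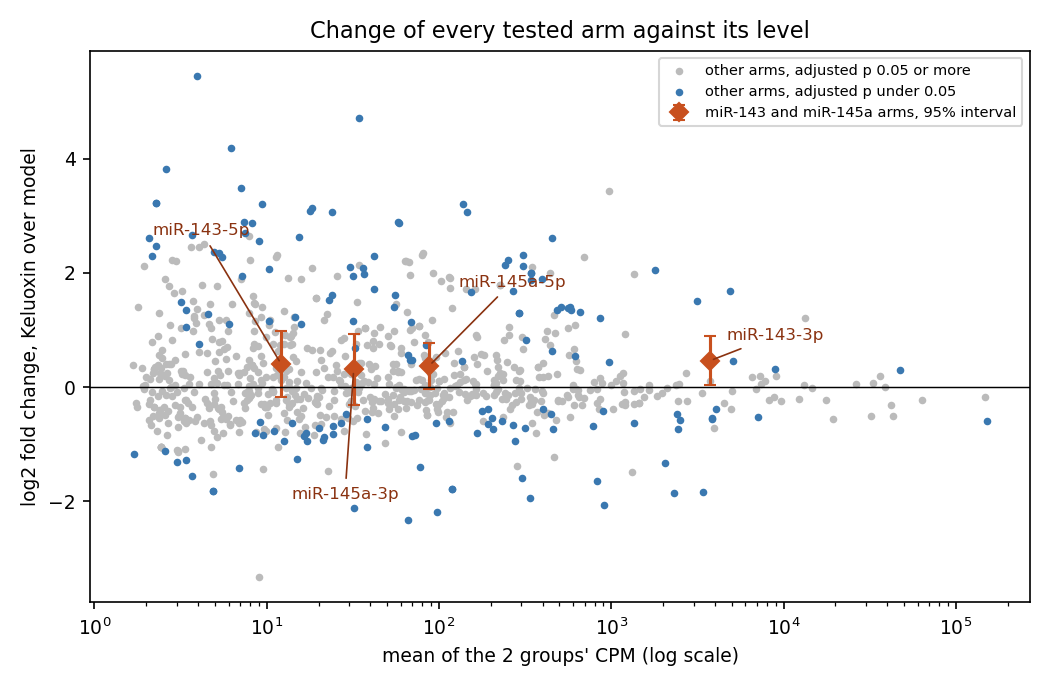
Log2 fold change of Keluoxin over model against the mean CPM of the groups (log scale) for the 862 tested arms, with arms past the test in blue and the 4 member arms as diamonds with 95% intervals. The members lie between 0.31 and 0.46, and the interval of miR-143-3p is the only one of the 4 that does not reach 0 before adjustment.

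Keluoxin replicate 4 was the highest of the 12 libraries for all 4 member arms. It was also the highest for 125 of the 862 tested arms (14.5%). Its level of miR-143-3p was 1.82 times the mean of the other 5 Keluoxin libraries, and that of miR-145a-5p was 1.55 times theirs. For miR-145a-3p and miR-143-5p the factors were 2.44 and 2.10. The 4 tested arms of the striated muscle list (miR-1a-3p, miR-133a-3p, miR-206-3p and miR-133b-3p) were all at their highest in the same library. Their summed level there was 1950.5 CPM, against 298.4 to 428.2 CPM in model libraries and at most 419.4 CPM in the other Keluoxin libraries. The summed level of the 10 photoreceptor and neuronal arms was 275850.5 CPM in this library, below the model range of 462722 to 540564 CPM. The 12 vascular wall arms that are not members summed to 17146 CPM there, below the model range of 19288 to 21646 CPM. Of these 12 arms, 2 were at their highest in this library. The summed levels of the 3 erythroid, 2 endothelial and 4 pigment epithelium arms there were 479, 1214 and 10581 CPM, within the range of the other Keluoxin libraries for the first 2 and the lowest of the group for the third. The part of these other cell types in the members' levels was not tested.

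miR-143-3p and miR-145a-5p moved together from library to library. Within the 6 model libraries the 2 arms had the same order, from replicate 2, the lowest of both, to replicate 5, the highest of both (Spearman's rho 1.0, exact p = 0.00278, adjusted p = 0.00833; Pearson's r of log2 CPM 0.95, exact p = 0.00972, adjusted p = 0.0146). Within the 6 Keluoxin libraries r was 0.87 (exact p = 0.025) and rho 0.49 (exact p = 0.356), with adjusted p of 0.025 and 0.356 over the 3 sets. Over all 12 libraries r was 0.92 (permutation p = 0.0001, adjusted 0.0003) and rho 0.71 (permutation p = 0.012, adjusted 0.018). Leaving out Keluoxin replicates 4 and 5, the 2 libraries farthest from the median of miR-143-3p, gave r = 0.68 (permutation p = 0.0306) and rho = 0.50 (permutation p = 0.144). The pooled relation thus rests in part on those libraries. The number of miR-143-3p reads per miR-145a-5p read was 40.98 ± 2.72 in model libraries, from 38.61 to 45.88. It was 43.63 ± 6.28 in Keluoxin libraries, from 36.71 to 51.59 (SD, n = 6 in each group). Its log2 difference was 0.08 (exact permutation p = 0.407, two-sided), and the Keluoxin libraries lay on both sides of the model range.

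**Figure D3:**
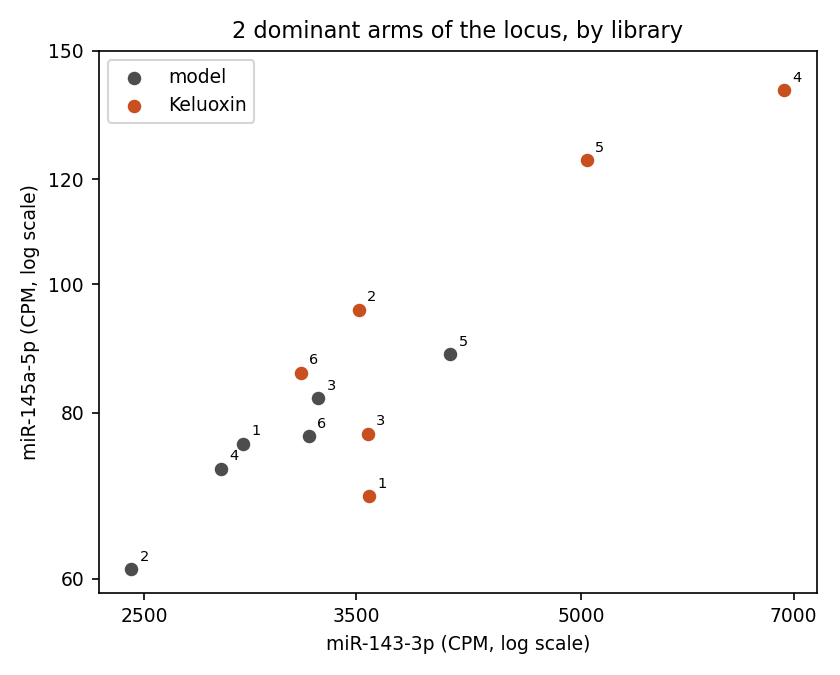
miR-145a-5p against miR-143-3p in CPM (both axes log scale), 1 point per library labelled with its replicate number, for 6 model and 6 Keluoxin libraries. The 6 model libraries keep 1 order on both axes, while Keluoxin replicates 1 and 3 (69.24 and 77.16 CPM of miR-145a-5p) lie below model replicate 3 (82.07 CPM), which has less miR-143-3p.

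With the group means taken out, so that a shared treatment difference does not count, the likeness of other arms to the members was ranked over the 12 libraries by Pearson's r of log2 CPM. These correlations are descriptions, since all points share libraries and scaling. The median r over 525 annotated arms was -0.05 for miR-143-3p, and 95% of arms lay below 0.54. On this scale the arms of the locus stood high for miR-143-3p: r was 0.91 with miR-143-5p, 0.89 with miR-145a-5p and 0.73 with miR-145a-3p. Without Keluoxin replicate 4 these values were 0.81, 0.81 and 0.39. For miR-145a-5p, 95% of the annotated arms lay below 0.53. Its r was 0.82 with miR-143-5p and 0.58 with miR-145a-3p, the other strand of its own hairpin. Without Keluoxin replicate 4 they were 0.69 and 0.22. The 5 other arms most like miR-143-3p were miR-195a-5p (0.85), miR-152-3p (0.84), miR-542-3p (0.83), miR-322-5p (0.80) and miR-1a-3p (0.78). Without Keluoxin replicate 4 their r was 0.70, 0.81, 0.70, 0.70 and 0.38. miR-322-5p, miR-152-3p and miR-542-3p were also among the 5 arms most like miR-145a-5p (0.76, 0.72 and 0.72), together with miR-135a-2-3p (0.79) and miR-221-5p (0.68). With Keluoxin replicate 4 left out, the r of these 5 arms with miR-145a-5p was, in the order named, 0.64, 0.61, 0.53, 0.69 and 0.78. The levels of miR-322-5p (means 4.244 CPM in model, 5.832 CPM in Keluoxin) and miR-542-3p (8.419 and 5.327 CPM) were low. miR-135a-2-3p, the arm most like miR-145a-5p, fell from 30.99 ± 5.02 to 17.58 ± 6.47 CPM (log2 fold change -0.82, edgeR adjusted p = 0.0394), and miR-221-5p did not pass (-0.29, edgeR adjusted p = 0.229). The group differences of the 5 arms most like miR-143-3p were of either sign. Their log2 fold changes, in the order above, were -0.12, -0.48, -0.63, 0.46 and 0.74, and none passed edgeR's test (adjusted p = 0.73, 0.0614, 0.44, 0.34 and 0.25). miR-152-3p, the arm with the second highest likeness, had 471.4 ± 89.4 CPM in model and 338.1 ± 64.5 CPM in Keluoxin libraries (SD, n = 6).

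In order of mean level over the 12 libraries, miR-143-3p stood 34th of 529 annotated arms with 3717 ± 1197 CPM (SD, n = 12). The arm next above it was miR-211-5p, known from pigment epithelium, with 3729 ± 479 CPM. The arm next below was miR-125a-5p with 3361 ± 697 CPM, and miR-143-3p did not differ from either beyond the spread between libraries. miR-145a-5p stood 201st with 87.41 ± 23.0 CPM, between miR-138-1-5p (88.04 ± 11.4 CPM) and miR-486b-5p (86.76 ± 55.2 CPM), again within the spread.

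The list of vascular wall microRNAs held 16 tested arms, including the 4 members. Of these, 1 was higher, 1 was lower and 14 did not pass, a share near the 13.6% called among all arms with a miRBase name. The median log2 fold change was -0.06 over the 16 arms and -0.09 over the 12 that are not members. miR-27a-3p, of the miR-23/27/24 clusters known from endothelium and other vessel cells, rose from 818.1 ± 102 to 1112 ± 129 CPM (SD, n = 6). Its log2 fold change was 0.44 (SE 0.11, edgeR adjusted p = 0.0247). miR-24-1-5p, the minor strand of a miR-24 hairpin, fell from 17.03 ± 3.60 to 11.01 ± 2.21 CPM (log2 fold change -0.63, edgeR adjusted p = 0.0432). The 2 most abundant arms of the list, miR-27b-3p and miR-21a-5p, had log2 fold changes of -0.18 and -0.04 and did not pass (edgeR adjusted p = 0.132 and 0.798). Precursor mir-145b of this list had no tested arm.

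Other lists placed the members beside further cell types. Of the 2 endothelial arms, miR-126a-3p, the classical endothelial microRNA, fell from 1644 ± 180.3 to 1067 ± 133 CPM with all 6 Keluoxin libraries below every model library (log2 fold change -0.62, edgeR adjusted p = 0.00687). The other endothelial arm, miR-126a-5p, had 170.9 ± 36.6 and 208.8 ± 33.3 CPM (edgeR adjusted p = 0.213). miR-451a-5p, the abundant microRNA of red blood cells, was the only 1 of 3 erythroid arms to pass: it rose from 30.91 ± 8.27 to 257.9 ± 239.9 CPM, with 4 of 6 Keluoxin libraries above every model library (edgeR adjusted p = 0.0154). miR-486b-5p and miR-486a-5p, also of the erythroid list, did not pass (edgeR adjusted p = 0.12 and 0.123). Of the 4 muscle arms miR-133b-3p rose, from 2.95 ± 1.38 to 11.5 ± 12.5 CPM (edgeR adjusted p = 0.044), and stood at 36.59 CPM in Keluoxin replicate 4. The muscle arms miR-1a-3p, miR-133a-3p and miR-206-3p did not pass (edgeR adjusted p = 0.25, 0.0841 and 0.199).

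Ratios within a library do not depend on how libraries are scaled, so each dominant member arm was also divided by the most abundant other arm of each of the 6 marker lists, 12 ratios in all. These ratios were added after the levels had been seen, and each also carries the partner's own difference. Over miR-126a-3p, miR-143-3p ran from 1.40 over a median of 1.979 to 2.143 in model libraries and from 3.00 over a median of 3.67 to 6.737 in Keluoxin libraries. All 6 Keluoxin libraries lay above every model library. The log2 difference was 1.04 (SE 0.20; exact permutation p = 0.00216, the smallest that 924 assignments allow, adjusted p = 0.00649), and 0.88 without Keluoxin replicate 4. For miR-145a-5p over miR-126a-3p it was 0.96 (SE 0.19, same exact p and adjusted p), again with 6 of 6 Keluoxin libraries above every model library. Of all 861 other tested arms, 173 (20.1%) had their 6 Keluoxin libraries above every model library when divided by miR-126a-3p, so the separation is not particular to the members. On their own levels neither member arm passed the test and miR-126a-3p did.

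The same held over miR-182-5p, the dominant photoreceptor microRNA, which fell from 182734 ± 11949 to 120674 ± 28488 CPM (edgeR adjusted p = 0.0241). Of the 10 tested arms of the photoreceptor and neuronal list 2 were lower, 1 was higher and 7 did not pass. The median log2 fold change of the list was -0.31, with 1 of 10 arms above 0. Over all arms with a miRBase name the median was -0.11, with 210 of 529 above 0. The other lower arm was miR-183-3p (log2 fold change -0.71, edgeR adjusted p = 0.0111). miR-96-5p of the same cluster as miR-182 rose from 42704 ± 3536 to 52406 ± 5929.8 CPM (edgeR adjusted p = 0.0432), and miR-183-5p of that cluster did not pass (log2 fold change -0.18, edgeR adjusted p = 0.47). The log2 difference was 1.05 for miR-143-3p and 0.97 for miR-145a-5p (exact permutation p = 0.00216 and adjusted p = 0.00649 for both), with all 6 Keluoxin libraries above every model library. Of all 861 other tested arms, 19.2% separated in this way over miR-182-5p. Over miR-27b-3p, of the vascular wall list, the differences were 0.61 (exact permutation p = 0.00866, adjusted p = 0.0208) and 0.53 (exact permutation p = 0.0108, adjusted p = 0.0216), with 4 of 6 Keluoxin libraries above every model library in each. Single libraries decide these 2 calls: without model replicate 2 the adjusted exact p was 0.0519 for miR-143-3p and 0.0668 for miR-145a-5p. The other tested arms were not counted over miR-27b-3p, so whether these differences are particular to the members is not known. Over miR-1a-3p, the muscle arm, the differences were 0.06 and -0.02 (adjusted exact p = 0.949 and 0.97). The intermediate case was miR-204-5p of pigment epithelium, with 0.35 and 0.27 (adjusted exact p = 0.193 and 0.27). Over miR-451a-5p the differences were -1.87 and -1.95 (adjusted exact p = 0.0682 and 0.0631), and 4 of 6 Keluoxin libraries lay below every model library.

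**Figure D4:**
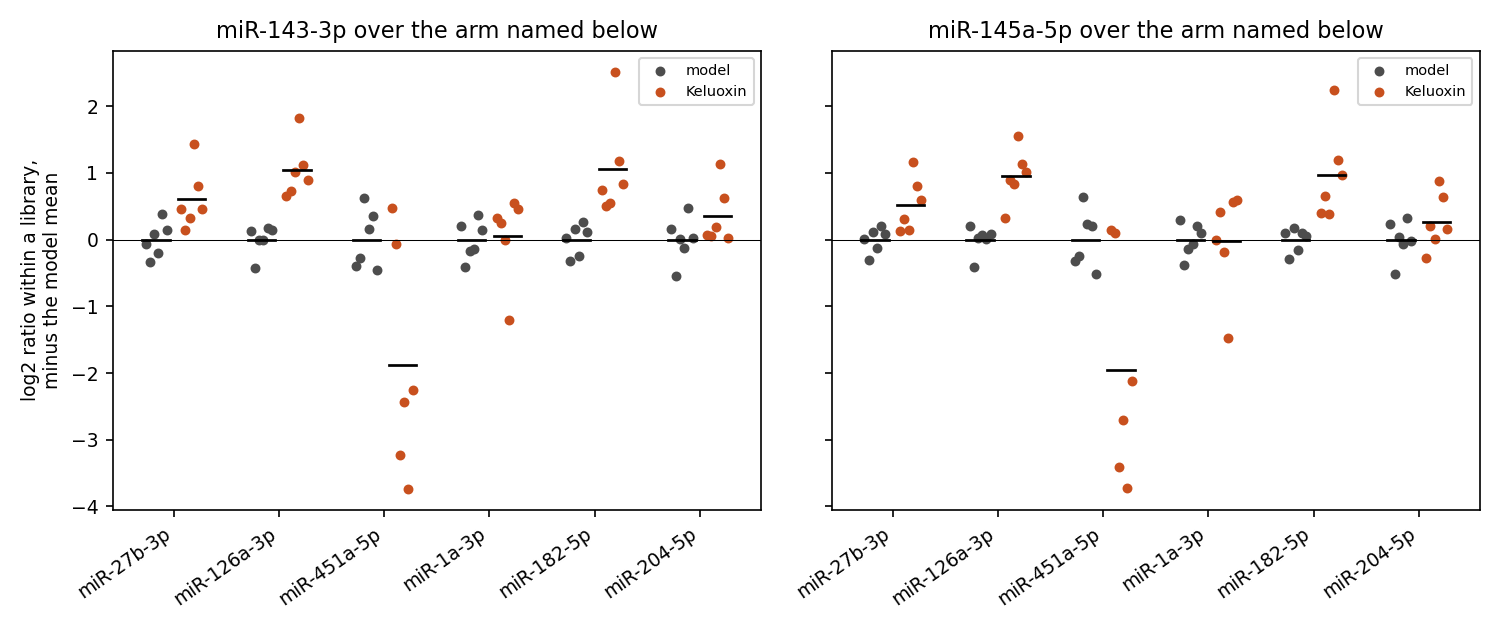
Log2 ratio of miR-143-3p (left) and miR-145a-5p (right) to the arm named on the horizontal axis, minus the model mean, 1 point per library for 6 model and 6 Keluoxin libraries, with the group mean as a bar. Over miR-126a-3p and miR-182-5p the Keluoxin points lie above all model points, with mean differences of 1.04 and 1.05 for miR-143-3p, while over miR-1a-3p they spread to both sides of the model points.

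The 5′ end, which sets the seed, was nearly fixed for the dominant arms. Of the miR-143-3p reads, 99.67% ± 0.0564 (SD, n = 6) in model and 99.72% ± 0.135 in Keluoxin libraries started at base 40 of the precursor, counted from 1 at its 5′ end. Every miR-145a-5p read in model libraries started at base 7, as did 99.87% ± 0.309 in Keluoxin libraries. miR-145a-3p had 3 starts of any weight, which give 3 seeds, and 2 further reads at base 48. In model libraries 65.4% ± 4.24 of its reads began at base 47, 14.5% ± 2.97 at 1 base earlier and 20.1% ± 4.4 at 2 bases earlier. The corresponding Keluoxin shares were 69.4% ± 9.29, 10.4% ± 3.28 and 20.2% ± 7.19. By its share at the main start miR-145a-3p ranked 240th of 267 annotated arms (each with 50 or more reads per library), whose median was 98.9%. The share at the main start did not differ between the groups for any of the 3 arms in limma's test of log2 odds (adjusted p = 0.611, 0.636 and 0.672), in which 3.37% of 415 arms were called. miR-143-5p had fewer than 50 reads in some libraries and was not tested on read ends.

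The 3′ end of miR-143-3p carried a base that the precursor does not encode in most of its reads. Its most frequent form began at base 40, ended at base 61 and had the substitution A61T (precursor base, position from 1 at the precursor's 5′ end, read base). It made up 30.9% ± 1.09 of the arm's reads in model and 29.7% ± 1.81 in Keluoxin libraries (SD, n = 6). The form that ends 1 base earlier with no differing base was the second most frequent, with 15.6% ± 1.00 in model and 10.5% ± 1.19 in Keluoxin libraries, and all 6 Keluoxin libraries lay below every model library. Of 678 forms that hold at least 10% of the reads of an arm, the groups did not overlap for 15.3%. The form that ends at base 61 with the precursor's own base had 7.90% ± 0.548 and 7.89% ± 1.29. An encoded last base was thus rarer at this position than a T in both groups. Counted over all ends, a differing last T was found in 38.73% ± 1.32 of miR-143-3p reads in model libraries, the fifth highest of 267 annotated arms, whose median was 7.46%. For miR-145a-5p it was 12.91% ± 2.54 and for miR-145a-3p 8.329% ± 2.06.

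A smaller share of miR-143-3p reads matched the precursor throughout in Keluoxin than in model libraries. The share ran from 34.46% over a median of 37.7% to 39.65% in model and from 28.95% over a median of 29.92% to 32.38% in Keluoxin libraries, and the groups did not overlap, as in 28.7% of 415 arms in this direction. The difference in log2 odds was -0.46 (SE 0.07, limma adjusted p = 0.000317). The same test called 62.4% of 415 arms, 237 lower and 22 higher in Keluoxin, with a median difference of -0.42, and over all reads the share was 59.29% ± 1.68 in model and 51.89% ± 2.51 in Keluoxin libraries. miR-145a-5p matched throughout in 57.21% ± 2.88 and 52.43% ± 4.90 of reads (difference -0.28, limma adjusted p = 0.0892). For miR-145a-3p the shares were 64.53% ± 5.44 and 64.59% ± 6.02 (limma adjusted p = 0.991).

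The kinds of differing base did not shift alike. A differing last C made up 7.0% ± 1.25 of miR-143-3p reads in model and 11.1% ± 1.5 in Keluoxin libraries, with 5 of 6 Keluoxin libraries above every model library. A differing last G made up 4.35% ± 0.536 and 8.07% ± 2.24, and an inserted base 1.29% ± 0.299 and 2.43% ± 0.325, each with 6 of 6 above. Over the 415 arms, Keluoxin lay wholly above model for last G in 15.9% and for an inserted base in 11.6%. Last C was not counted over all arms, so whether its shift is particular to miR-143-3p is not known. The share of miR-143-3p reads with a differing last A was 5.73% ± 0.295 and 5.35% ± 0.583. A differing last T made up 38.73% ± 1.32 in model and 35.32% ± 1.07 in Keluoxin libraries, and although all 6 Keluoxin libraries lay below every model library, this did not pass (difference in log2 odds -0.21, limma adjusted p = 0.0693, 20% of 415 arms called). Such a separation downward for last T was seen in 5.06% of the 415 arms. The share with any differing last base was 55.81% ± 1.37 and 59.85% ± 2.40 and did not pass either (limma adjusted p = 0.0674, 24.6% of 415 arms called). Without Keluoxin replicate 4 it did pass, with a difference in log2 odds of 0.29 (limma adjusted p = 0.00275). In miR-145a-5p a differing last G made up 3.33% ± 1.01 and 7.72% ± 2.43, with 6 of 6 Keluoxin libraries above every model library. Apart from that of last T, the shares of single kinds are descriptions and were not tested.

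**Figure D5:**
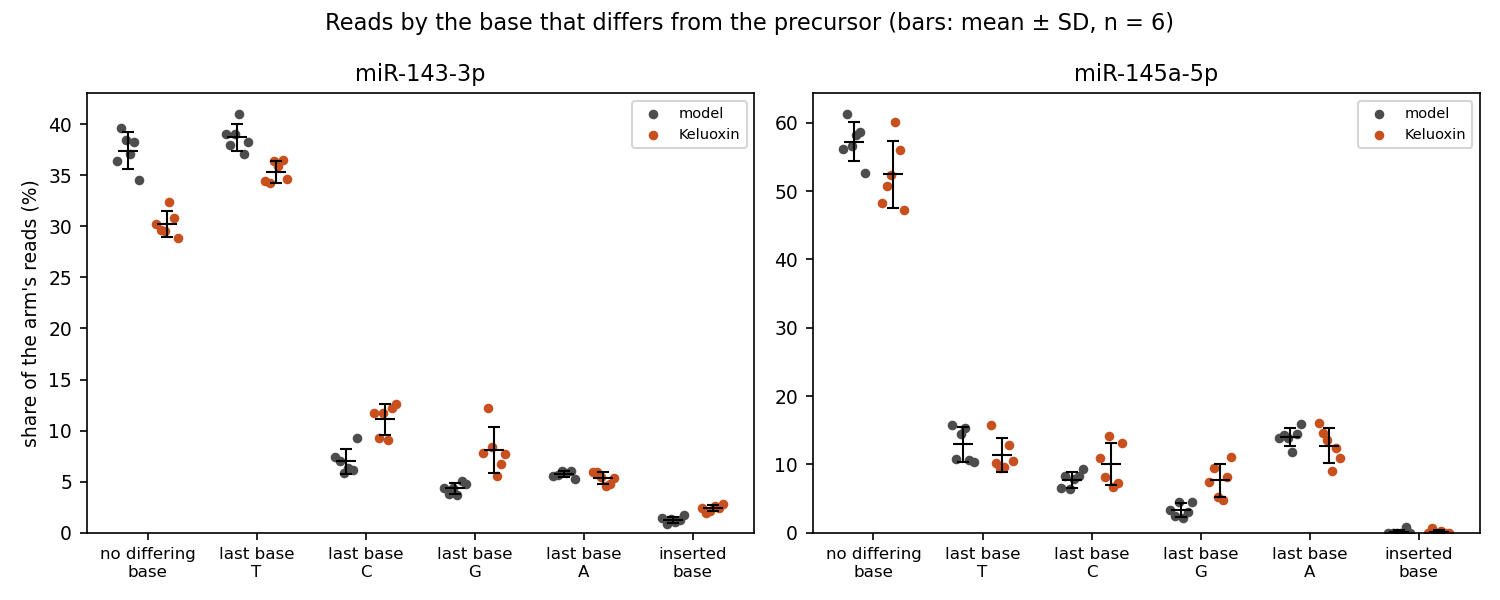
Share of the reads of miR-143-3p (left) and miR-145a-5p (right), in percent, that match the precursor throughout, that differ in their last base (by the base read) or that hold an inserted base, 1 point per library for 6 model and 6 Keluoxin libraries, with the mean ± SD. In miR-143-3p the groups separate for reads with no differing base (37.39% against 30.25%) and for last G (4.35% against 8.07%), and last T is the most frequent differing base in both groups.

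Mean read length did not pass the test for any of the 3 arms. The mean length of miR-143-3p was 21.21 ± 0.072 nt in model and 21.30 ± 0.0622 nt in Keluoxin libraries (SD, n = 6), and that of miR-145a-5p 22.61 ± 0.0911 and 22.56 ± 0.140 nt. The adjusted p in limma was 0.217 and 0.672, and 9.4% of 415 arms were called. miR-145a-3p had 20.88 ± 0.165 and 20.90 ± 0.197 nt (limma adjusted p = 0.966). Within that length, 40.7% ± 2.33 of its reads ended at base 66 of the precursor in model and 52.4% ± 4.93 in Keluoxin libraries, with all 6 Keluoxin libraries above every model library. Of 1113 end positions that hold at least 10% of the reads of an arm, the groups did not overlap for 15.7%. These shares rest on 57 to 525 reads per library and were not tested.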

How the data were processed

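Each library was made from 1 µg of total RNA with inserts of 15 to 35 nt, per the labels' protocols. Bowtie, Novoalign, cutadapt and bcl2fastq are named, without versions, in the submitters' processing notes; genome build and miRBase release: not given in the sources used here. A row of a deposited table is a distinct read sequence of at least 2 reads and 15 to 51 nt, with whole-number read counts that are not normalized, per the file headers. The authors divided a count by the number of precursors it matched, and the undivided count in the tag name was used here. The other deposited fields, positions with 5 added and at most 1 difference per read, have no normalization per the file headers.

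Each sequence was counted once per arm, 5p or 3p by the middle of the precursor, with copies that share their most frequent read joined. This gave 2153 arms, 1436 of them with a miRBase name. Of the mir-143 reads 3.63% also matched 3 predicted precursors, and of the mir-145a reads 0.197% also matched mir-145b. Levels were tested with edgeR 4.0.16 in R 4.3.3 (TMM, its filter on low counts, quasi-likelihood test, Benjamini-Hochberg adjustment, threshold 0.05). Read ends (arms with 50 or more reads per library) and strand ratios were tested with limma 3.58.1 with a prior count of 0.5. Single values were tested by exact two-sided permutation over the 924 assignments of 12 libraries, or by 100000 resamples for correlations over 10 or 12 libraries. The scripts were tested on simulated data. The genes named are the 4 member arms, in the vascular wall, endothelial, erythroid and muscle lists every called arm and the 3 most abundant, the 5 arms most like each dominant member arm, and their neighbours in level. The members and lists were chosen with earlier results of these data known. Alternatives were other scalings, filters, read sets, DESeq2 1.42.0, a replicate block and each library left out. Counting errors cover counting only.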

Additional observations from a re-analysis of the deposited data

Results flagged for a closer look

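In each group of 6 libraries the highest and lowest values of the members' measures were set against the rest of their group, in 44 groups; chance marks about 1 in 20 groups, and 6 stood apart. In Keluoxin replicate 4, miR-145a-3p had 69.6 CPM, while the other Keluoxin libraries had 24.73 to 32.39. In the same library the mean read length of miR-143-3p was 21.18 nt (others 21.29 to 21.35 nt), and the share of its reads whose last base differs was 55.27% (others 59.83% to 61.98%). The share of miR-145a-5p reads at the main start was 99.24% there and 100% in the other 5. That difference rests on 4 reads at base 8 and 4 at base 13, of 1056 reads in this library. The other Keluoxin libraries had 234 to 458 reads of the arm, and only sequences with at least 2 reads are held. In model replicate 1, miR-145a-5p had 4.696 reads per read of miR-145a-3p, against 2.143 to 2.938 in the other model libraries. In model replicate 4, 75.0% of miR-145a-3p reads had no differing base, against 59.42% to 64.81%.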

How the results depend on the processing

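No member arm was called under any of 24 alternatives to its level; the log2 fold change ran from 0.13 to 0.67 for miR-143-3p (adjusted p 0.0659 to 0.647), 0.05 to 0.57 for miR-145a-5p (0.0777 to 0.861) and 0.07 to 0.64 for miR-143-5p (0.168 to 0.874). That of miR-145a-3p was below 0 under upper-quartile scaling (-0.04), without Keluoxin replicate 4 (-0.01 to 0.40 over the 12 libraries left out in turn) and without model replicate 1 and Keluoxin replicate 4 together (-0.14), an alternative added after seeing the data. The count of 155 called arms was 246 with DESeq2 and its own filter, where 1351 arms were tested in place of 862 (18.2% against 18%), 81 with annotated precursors only, which tests fewer arms, and 233 without model replicate 1 and Keluoxin replicate 4. It ran from 64 (without model replicate 4) to 257 (without model replicate 1), with 91, 83 and 78 without model replicates 3 and 5 and Keluoxin replicate 6. The replicate numbers were not used as pairs in the main tests. With a replicate block 103 arms were called and no member arm. Of 6 same-numbered pairs 3 had a correlation above 0.1 (-0.02 to 0.25), and 1 of 6 libraries in each group correlated best with its own number. Whether same-numbered samples were handled together cannot be told from these correlations. With reads without a differing base, the log2 ratio of 5p over 3p differed by 0.12 for mir-143 and -0.05 for mir-145a, miR-143-3p over miR-145a-5p by -0.10 and miR-143-3p over miR-1a-3p by -0.15. With 1 library left out, the mir-145a ratio ran from -0.02 to 0.24, miR-143-3p over miR-1a-3p from -0.04 to 0.32, miR-145a-5p over miR-1a-3p from -0.14 to 0.27, the mean length of miR-145a-3p from -0.03 to 0.07 nt, and its log2 odds of reads without a differing base from -0.14 to 0.14. Those of miR-145a-5p ran from -0.37 to -0.22 and passed without Keluoxin replicate 4 (limma adjusted p = 0.0147); those of miR-143-3p passed throughout (-0.50 to -0.43). The ratios of both arms over miR-126a-3p and miR-182-5p passed under all 15 alternatives. Those over miR-27b-3p did not pass under 3 (miR-143-3p) and 4 (miR-145a-5p) of 15, and those over miR-451a-5p passed under 2 of 15. The cause of these changes was not tested. Read-end measures of miR-145a-3p, last-base shares and ratios to other arms were added after seeing the data. Depth limits miR-143-5p most, with 29 reads in its shallowest library.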
